A study of Mus musculus with 6 samples.

Results

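The ephrins, their Eph receptors, the Slits, their Robo receptors, the netrins and the netrin receptors form the set of 42 genes examined here, out of 55471 genes in the table. Members were chosen by gene symbol, giving 8 ephrins, 14 Eph receptors, 3 Slits, 4 Robos, 6 netrins and 5 netrin receptors (Dcc and the UNC5 proteins), plus 2 genes, Unc50 and Unc5cl, whose symbols match the UNC5 pattern but which are not netrin receptors by function. Transcript levels were read by directional poly(A) RNA-seq in osteoblasts, the bone-forming cells, grown out from digested parietal skull bone of C57BL/6 mice aged 3 days and kept in culture for 3 days. There were 3 libraries from animals labelled WT (genotype wild type) and 3 from animals labelled TCKO, which carried floxed Tet1, Tet2 and Tet3 (fl/fl at each locus) together with Prx1-Cre. TET proteins oxidise methylated cytosine in DNA, and the Prx1 enhancer drives Cre in limb bud mesenchyme and part of the skull mesenchyme. Whether the controls carried floxed alleles, and how many mice went into a library, was not given in the sources used here, so p-values measure the spread between these libraries, which may be technical.

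As background, these molecules were first known as cues that steer growing axons, and each family works through contact or secretion. Ephrin-A ligands are tethered to the membrane by a lipid anchor and ephrin-B ligands span it, and they signal both into the cell that carries the Eph receptor tyrosine kinase and back into the cell that carries the ligand. In bone, ephrin-B2 on osteoclasts and EphB4 on osteoblasts are known for exchange between the cells that remove bone and those that form it, and loss of ephrin-B1 is known for skull and facial defects. Slits are secreted ligands of Robo receptors. Netrins are laminin-like proteins, secreted or anchored, and secreted ones such as netrin-1 bind DCC, neogenin and the UNC5 receptors.

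Total counts per library lay between 8019999 and 10177214, and at this depth a count of 0 allows a level of up to 0.299 to 0.373 CPM (counts scaled to a common library size), a floor for counting error only. Within each genotype, replicates 1 and 2 resembled each other (biological coefficient of variation 3.00% in WT and 3.62% in TCKO) much more than either resembled replicate 3 (16.4% to 18.4%), and mitochondrial counts took 2.22% and 2.47% of the replicate 3 libraries against 1.11% to 1.24% of the others. TCKO replicate 3 held 4583 counts of Xist and 0 of Ddx3y, whereas each of the other libraries held at most 4 of Xist and at least 675 of Ddx3y, so the sexes were not balanced. The log2 fold changes of the targeted genes, TCKO over WT, were -0.97 for Tet1 (adjusted p = 0.00648), -0.14 for Tet2 (adjusted p = 0.545) and 0.51 for Tet3 (adjusted p = 0.00745). Counts sum over all exons, those outside the floxed parts included, so they check the labels only in part, and for Tet2 and Tet3 they show no loss. Osteoblast markers such as Col1a1 and Runx2 were present in every library, while the late markers Bglap, Bglap2, Dmp1 and Ifitm5 stayed at 5 counts or fewer in each. Some markers of other cells differed between the genotypes. The summed level of 8 chondrocyte markers was 7039 to 8741 CPM in WT and 838 to 1173 CPM in TCKO (6 of 7 tested were lower). The 6 skeletal muscle markers summed to 6.99 to 21.6 and 35.0 to 79.3 CPM (1 of 2 tested was higher). Acta1 made up most of that sum in TCKO, with a mean of 6.42 CPM in WT and 55.8 CPM in TCKO. Des was also higher on average but did not pass (adjusted p = 0.285). Myod1, Myog and Tnnt3 were lower on average and were not tested, nor was Ckm, at 0 to 2 counts in each library. The 6 pericyte markers summed to 219 to 325 and 119 to 174 CPM (2 of 3 were lower, and Higd1b was at 0 in each library). The 10 haematopoietic and osteoclast markers, mostly Lyz2, summed to 396 to 706 and 159 to 539 CPM, with overlapping genotypes (2 of 8 were lower). The 10 osteoblast markers, mostly Col1a1 and Col1a2, summed to 30190 to 32550 CPM in WT and 14260 to 22410 CPM in TCKO. Of 6 tested, 3 were lower: Runx2, Alpl and Col1a1. Alpl averaged 30.4 CPM in WT and 2.56 CPM in TCKO (log2 fold change -3.54, adjusted p = 0.00743). Sp7, Col1a2 and Ibsp were lower on average but did not pass. The 10 endothelial markers summed to 7.88 to 9.94 CPM in WT and 7.42 to 10.3 CPM in TCKO, with 1 of 3 tested higher and 1 lower, and the 10 neuron and Schwann cell markers to 77.3 to 100.2 and 78.9 to 88.1 CPM, with 1 of 4 lower and Elavl3 at 0 in each library. In such bulk samples fewer cells of a type and less RNA per cell cannot be told apart, and the part of these cell types in the results below was not tested.

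Of the 42 members, 40 had at least 1 count and 33 passed the filter on low counts and were tested. With edgeR's two-sided quasi-likelihood test over all 13826 tested genes, 6 members were higher in TCKO at an adjusted p under 0.05 (18.2% of the tested members, against 9.07% of all tested genes) and 7 were lower (21.2%, against 8.63%). The higher members were Epha1, Ephb4, Efnb2, Slit2, Unc5a and Unc5d, and the lower ones Ephb3, Ephb6, Efnb1, Slit1, Robo1, Robo2 and Ntn1. A difference of over 2-fold as well was found for 3 higher members (Epha1, Unc5a and Unc5d; 3.16% of all tested genes) and 2 lower ones (Efnb1 and Slit1; 3.19%). The median log2 fold change of the tested members was -0.07, and that of all tested genes 0.00. The CPM of the genotypes did not overlap for 22 tested members (66.7%, against 38.3% of all tested genes), and 13 of these were the members that passed. Unc5a, Unc5d and Slit1 were kept by the low-count filter through the genotype in which they were higher. The fits that left out a library or summed replicates reused the same filtered genes, so passing there gives these genes no separate support. When each library was left out in turn, Epha1, Efnb1, Efnb2, Unc5a, Unc5d and Slit2 kept an adjusted p under 0.05 in all 6 fits, and the other 7 lost it in some. When replicates 1 and 2 of each genotype, being so close, were summed into 1 sample, 3 members passed: Epha1 (adjusted p = 0.0323), Efnb1 (0.0323) and Unc5d (0.0397). With the replicate number added as a block to that fit 9 passed, of which 7 were among the 13: Epha1, Efnb1, Unc5d, Efnb2, Slit2, Ephb3 and Robo1, beside Epha2 and Epha3.

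**Figure D1:**
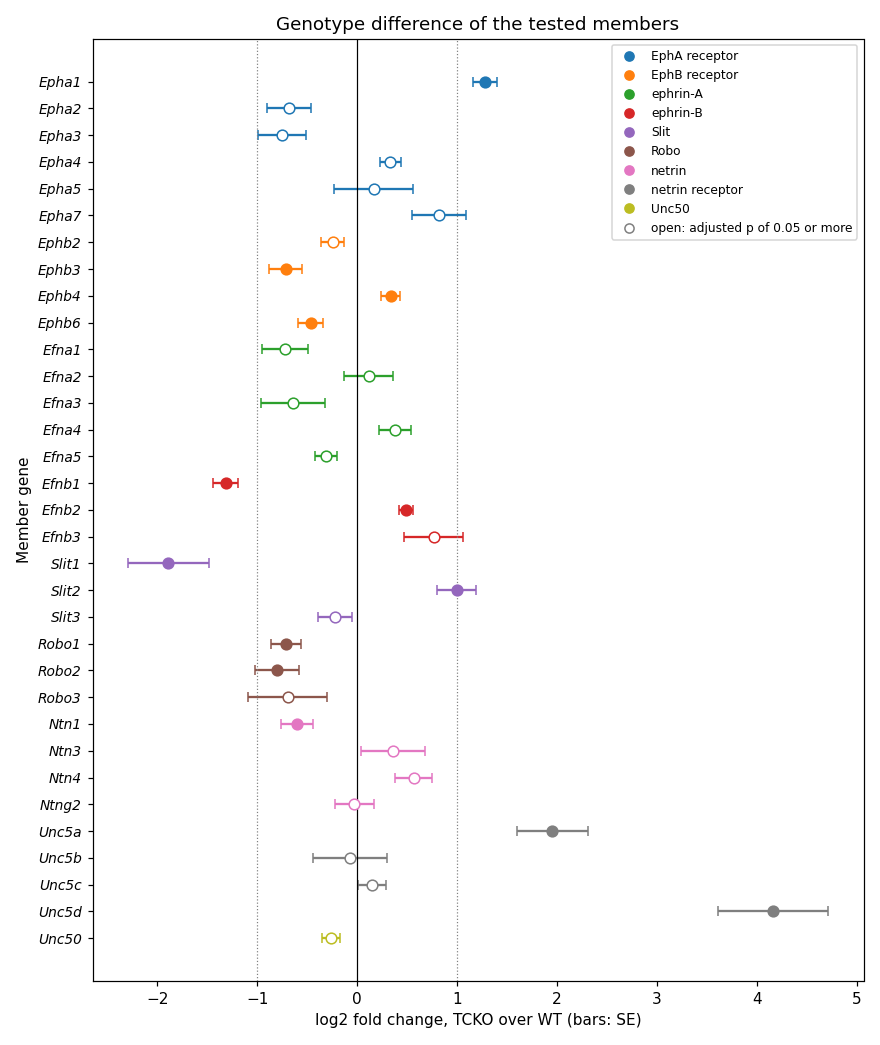
log2 fold change (TCKO over WT) with its standard error for the 33 tested members, coloured by family, filled where the adjusted p was under 0.05 and open otherwise, with dotted lines at a 2-fold difference. Members of the same family lie on both sides of 0 in most families, Efnb1 against Efnb2 and Slit1 against Slit2 among them, while the 3 tested Robos lie below 0.

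Per exon length, the most abundant members in WT were Unc5b (56.2 ± 15.7 RPKM, the CPM divided by the exon length in kilobases, SD, n = 3), Efnb1 (48.2 ± 1.74 RPKM), Epha2 (43.3 ± 7.98 RPKM), Efna5 (22.1 ± 2.15 RPKM), Unc50 (20.8 ± 1.34 RPKM), Efnb2 (18.7 ± 0.371 RPKM), Ephb4 (14.4 ± 1.43 RPKM) and Slit3 (11.01 ± 2.48 RPKM). In that order the WT libraries of Unc5b, Efnb1 and Epha2 overlapped, as did those of Efna5 and Unc50, while the other neighbours did not. In TCKO the mean RPKM of Efnb1 (19.4) was below that of Efnb2 (26.3), the opposite order from WT. Epha8 and Epha10 had 0 counts in every library, and another 7 members, Epha6, Ephb1, Robo4, Ntn5, Ntng1, Dcc and Unc5cl, never exceeded 5 counts in a library and were not tested. The vascular Robo4 held 0 to 2 counts. Dcc, the classical attractive netrin receptor, had 0 counts in each WT library and 1, 2 and 2 counts in the TCKO libraries, each under the floor of 3 counts.

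**Figure D2:**
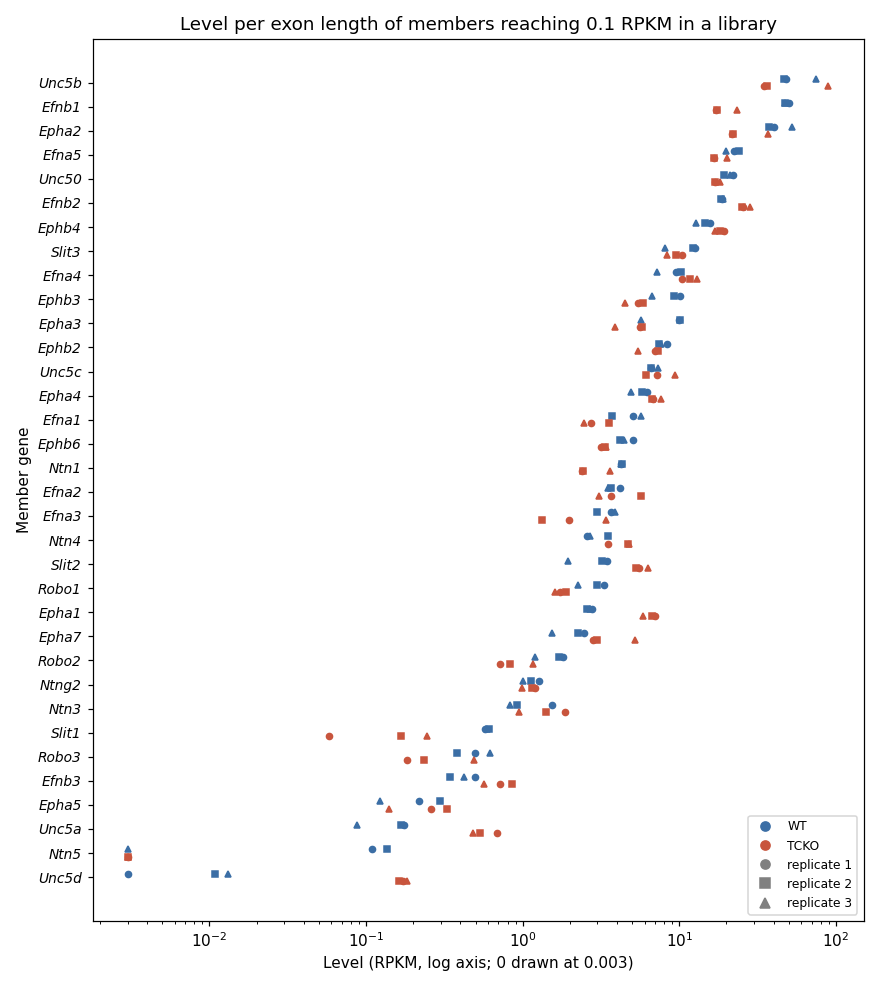
Level of each member that reached 0.1 RPKM in a library, in RPKM on a log axis, 1 point per library with WT in blue and TCKO in red and the replicate given by the marker shape; 0 is drawn at 0.003. Efnb1, Slit1, Unc5d and Epha1 show WT and TCKO points set apart, while Unc5b, at the top, splits by replicate 3 in both genotypes.

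To show the sequence at which transcription starts for the members that passed in every leave-one-out fit and averaged over 10 CPM in both genotypes, the bases just upstream of their RefSeq start are given for GRCm38.p6, 5′ to 3′ on the gene's strand, in lower case with CG pairs, the main site of cytosine methylation in mammals, in capitals. The Efnb1 stretch is chrX:99135811-99136060 (+ strand), the Efnb2 stretch chr8:8661243-8661492 (- strand), the Epha1 stretch chr6:42373269-42373518 (- strand) and the Slit2 stretch chr5:47982905-47983137 (+ strand).
Efnb1: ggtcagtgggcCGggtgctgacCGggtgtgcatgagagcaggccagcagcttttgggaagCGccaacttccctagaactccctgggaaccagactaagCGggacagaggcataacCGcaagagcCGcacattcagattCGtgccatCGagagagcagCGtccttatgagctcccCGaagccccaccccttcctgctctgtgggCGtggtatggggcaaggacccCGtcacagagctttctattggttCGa
Efnb2: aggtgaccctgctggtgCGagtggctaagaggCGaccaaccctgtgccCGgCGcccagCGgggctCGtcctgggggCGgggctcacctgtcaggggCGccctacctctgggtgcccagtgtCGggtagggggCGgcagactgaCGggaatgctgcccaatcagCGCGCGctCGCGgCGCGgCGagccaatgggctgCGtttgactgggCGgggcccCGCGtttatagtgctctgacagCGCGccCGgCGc
Epha1: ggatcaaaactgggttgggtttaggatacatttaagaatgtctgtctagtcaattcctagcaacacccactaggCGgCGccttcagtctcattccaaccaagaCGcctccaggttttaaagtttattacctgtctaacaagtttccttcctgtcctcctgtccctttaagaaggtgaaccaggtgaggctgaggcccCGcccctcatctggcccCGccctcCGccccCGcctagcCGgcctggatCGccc
Slit2: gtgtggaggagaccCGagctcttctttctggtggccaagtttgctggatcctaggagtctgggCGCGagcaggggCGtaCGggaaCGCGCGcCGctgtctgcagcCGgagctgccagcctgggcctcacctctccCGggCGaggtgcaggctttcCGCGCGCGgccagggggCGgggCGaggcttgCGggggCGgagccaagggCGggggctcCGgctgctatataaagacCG
These hold 13, 27, 9 and 23 CG pairs, the last over 233 bases because the gene's start in the deposited table lies upstream of the RefSeq start, the others over 250 bases. Windows of 250 bases before the start were found for 37 of the 42 members (42 windows, no entry for Dcc, Efnb3, Ntn1, Slit1 and Unc5d). Their median was 16.5 CG pairs, against 6 over all 32851 windows in the table, and 78.6% held at least 10 against 37.8% of all windows. All 42 members are protein-coding, whereas the full set of windows was not limited to protein-coding or expressed genes. The sets are therefore unlike, and whether the members differ from similar genes was not tested. The letters TGTGGT on either strand, the core that RUNX factors are known to bind, stood in 5 member windows (11.9%, against 14% of all windows), none of them a window of a member that passed. The median was 25 CG pairs over the 5 windows of higher members, with a range of 9 to 27, and 13 over the 7 windows of lower members, with a range of 4 to 27. It was 20 over the 22 windows of tested members that did not pass, with a range of 4 to 35. The windows of lower members include those of Robo2, with 14, 4 and 8 pairs. The Robo2 windows with 4 and 8 pairs lie outside the gene's span in the deposited table. The Robo1 window, with 11 pairs, lies inside that gene's span, downstream of its start there.

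The ephrin-B ligands changed in opposite directions. Efnb1 (chrX:99136130-99148991), which encodes the membrane-spanning ligand ephrin-B1, stood at 173, 163 and 163 CPM in WT replicates 1, 2 and 3 and at 59.6, 60.2 and 80.8 CPM in TCKO. Every TCKO library was below every WT library, and TCKO replicate 3, the library with Xist, was the highest of the 3. Efnb1 was 2.49-fold lower in TCKO (log2 fold change -1.31 ± 0.12, SE, adjusted p = 0.000599), and without TCKO replicate 3 the log2 fold change was -1.47 (adjusted p = 3.1e-05). Efnb2 (chr8:8617434-8661242), which encodes ephrin-B2, was at 128, 126 and 131 CPM in WT and at 175, 173 and 193 CPM in TCKO. Here all TCKO libraries were above all WT libraries, with little spread within each genotype. The increase was 1.41-fold (log2 fold change 0.49 ± 0.07, adjusted p = 0.00371). With replicates 1 and 2 summed the adjusted p of Efnb2 was 0.0951, and with a replicate block added to that fit 0.0484. Efnb3 was low, with 11 to 13 counts in WT and 16 to 22 in TCKO, and did not pass (log2 fold change 0.77 ± 0.30, adjusted p = 0.120). The promoter stretches shown above held 13 CG pairs for Efnb1 and 27 for Efnb2.

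As shares of the summed ephrin-B RPKM, Efnb1 made up 71.6 ± 0.807% in WT and 41.5 ± 2.94% in TCKO (SD, n = 3), and Efnb2 27.8 ± 0.857% and 56.9 ± 2.53%. The genotypes did not overlap in either share, and the larger share passed from Efnb1 to Efnb2. Summed over the 3 genes, ephrin-B transcript averaged 67.4 ± 1.83 RPKM in WT and 46.4 ± 4.94 RPKM in TCKO, with libraries of 65.8 to 69.4 in WT and 43.5 to 52.1 in TCKO. Of all 8 ephrins, Efnb1 took 43.6 ± 0.876% of the RPKM in WT and 22.6 ± 1.96% in TCKO. These shares were compared without a test.

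**Figure D3:**
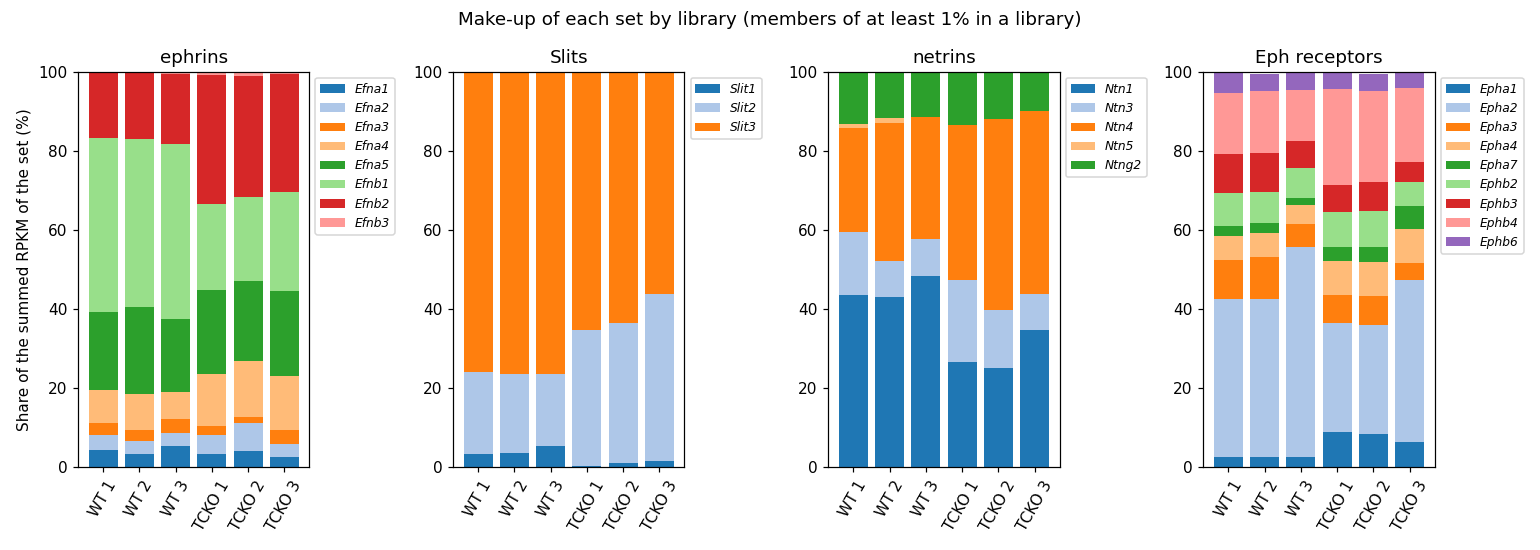
Share of each member in the summed RPKM of the ephrins, Slits, netrins and Eph receptors, in percent, 1 bar per library, for members of at least 1% in a library. Efnb1 covers 42.6% to 44.2% of the ephrin bar in WT and 21.1% to 24.9% in TCKO, and Slit2 18.2% to 20.7% of the Slit bar in WT and 34.5% to 42.3% in TCKO.

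None of the 5 ephrin-A ligands passed edgeR's test in the main fit, with 3 at an unadjusted p under 0.05 (1 higher, 2 lower), and none passed with DESeq2. Efna1 passed in edgeR with the filter lowered to 1 count (adjusted p = 0.0366). Efna3 and Efna5 passed without TCKO replicate 3 (adjusted p = 0.0192 and 0.0225) and on replicates 1 and 2 alone. Efna5 also passed without WT replicate 3 (adjusted p = 0.0439). In the remaining alternatives none passed. Efna5, the most abundant of them, had a log2 fold change of -0.31 ± 0.11 (adjusted p = 0.0941) with overlapping genotypes, at 79.8 to 97.0 CPM in WT and 67.0 to 81.6 CPM in TCKO. Efna1 was nearest to the threshold at -0.72 ± 0.23 (adjusted p = 0.0646), and its TCKO libraries (4.49 to 6.46 CPM) lay just under its WT libraries (6.79 to 10.4 CPM). The log2 fold changes of Efna2, Efna3 and Efna4 were 0.11, -0.64 and 0.38, with adjusted p of 0.786, 0.208 and 0.151.

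Among the EphB receptors, which bind mostly ephrin-B ligands, Ephb4 was higher and Ephb3 and Ephb6 were lower in TCKO. Ephb4 (chr5:137350109-137378669), the receptor known for binding ephrin-B2, was at 72.4, 68.1 and 59.4 CPM in WT and at 89.0, 84.7 and 78.4 CPM in TCKO. The lowest TCKO library stood only just above the highest WT library, and the increase was 1.26-fold (log2 fold change 0.34 ± 0.10, adjusted p = 0.0471). Leaving out any library other than TCKO replicate 3 raised the adjusted p of Ephb4 above 0.05 (from 0.0660 to 0.155). Ephb3 (chr16:21204755-21223305), a kinase-active EphB receptor, was at 66.6, 61.6 and 44.4 CPM in WT and at 36.3, 38.9 and 30.1 CPM in TCKO. Replicate 3 was the lowest library of each genotype, yet its WT value was still above each TCKO value. The decrease was 1.64-fold (log2 fold change -0.71 ± 0.16, adjusted p = 0.0225), with an adjusted p of 0.0869, 0.0904 and 0.0693 without WT replicate 1, WT replicate 2 and TCKO replicate 1. Ephb6 (chr6:41605482-41620509), whose kinase domain is inactive, was at 19.1, 15.9 and 16.7 CPM in WT and at 12.0, 12.7 and 12.8 CPM in TCKO. All TCKO libraries were below all WT libraries, a 1.38-fold decrease (log2 fold change -0.46 ± 0.12, adjusted p = 0.0377). Without WT replicate 1, WT replicate 2, TCKO replicate 1 or TCKO replicate 2 its adjusted p was 0.149, 0.0755, 0.124 and 0.106. Ephb6 also did not pass with DESeq2 (adjusted p = 0.0726, or 0.0782 with the RPKM filter) or with the filter lowered to 1 count (0.0556). Ephb4 did not pass with the RPKM filter (0.0581, or 0.0604 in DESeq2). Ephb2 did not pass (log2 fold change -0.24 ± 0.12, adjusted p = 0.192). With replicates 1 and 2 summed, the adjusted p of Ephb3, Ephb4 and Ephb6 was 0.185, 0.247 and 0.243, and with the replicate block added it was 0.0286, 0.103 and 0.156.

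Of the 6 tested EphA receptors, which bind mostly ephrin-A ligands, 1 passed. Epha1 (chr6:42358487-42373268) was at 10.9, 10.2 and 10.6 CPM in WT and at 27.6, 26.2 and 23.0 CPM in TCKO. The lowest TCKO library stood well above the highest WT library. The increase was 2.43-fold (log2 fold change 1.28 ± 0.12, adjusted p = 0.000537), and over the fits that left out a library the log2 fold change ranged from 1.22 to 1.36. Exons of Epha1 share 236 bp (6.01% of its exon length) with Zyx, the gene of the adhesion protein zyxin on the opposite strand. Zyx held 65515 counts over the 6 libraries against 937 of Epha1, and its log2 fold change was 0.38 (adjusted p = 0.0239). The strand setting of the counting was not given in the sources used here, so the part of Zyx reads in the Epha1 counts was not tested.

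Epha2, the most abundant Eph receptor, stood at 187, 175 and 245 CPM in WT and at 102, 103 and 173 CPM in TCKO. The genotypes were apart by a narrow margin, because TCKO replicate 3 nearly reached WT replicate 2, and the difference did not pass (log2 fold change -0.68 ± 0.22, adjusted p = 0.0728). With the replicate number as a block it passed (adjusted p = 0.00243), as did Epha3 (log2 fold change -0.75 ± 0.24, adjusted p = 0.0672 without and 0.00175 with the block). With replicates 1 and 2 summed under the block, the adjusted p of Epha2 and Epha3 was 0.0402 and 0.0304. Epha7 was at 24.2, 22.3 and 15.3 CPM in WT and at 27.7, 29.5 and 51.8 CPM in TCKO. Its high value came from TCKO replicate 3, and the difference did not pass (log2 fold change 0.82 ± 0.27, adjusted p = 0.0745). DESeq2 gave an adjusted p of 0.0145 for Epha2, 0.0147 for Epha3 and 0.0189 for Epha7. Epha4 (0.33 ± 0.11, adjusted p = 0.0654) and the scarce Epha5 (0.17 ± 0.40, adjusted p = 0.811) did not pass either. As shares of the Eph receptor RPKM, Epha2 took 44.2 ± 7.60% in WT and 32.1 ± 7.74% in TCKO with overlapping libraries, Ephb4 14.7 ± 1.5% and 22 ± 2.88%, and Epha1 2.74 ± 0.0232% and 7.93 ± 1.27%, with no overlap for Ephb4 and Epha1.

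The Slits, the secreted ligands, also moved apart. Slit2 (chr5:47983138-48307733) was at 87.3, 81.4 and 49.5 CPM in WT and at 141, 135 and 161 CPM in TCKO. Replicate 3 was the lowest WT library and the highest TCKO library, and no TCKO value came near a WT value. The increase was 2.00-fold (log2 fold change 0.999 ± 0.195, adjusted p = 0.0120), which fell just short of the 2-fold threshold. Within replicates 1 and 2 the difference in log2(CPM + 2) was 0.69, and within replicate 3 it was 1.66. With replicates 1 and 2 summed its adjusted p was 0.0935, and 0.0477 with the block as well. Slit1 (chr19:41600257-41743665) was low, at 28, 36 and 29 counts in the WT libraries against 3, 8 and 13 in TCKO. Each TCKO library held fewer than the lowest WT library, a 3.71-fold decrease (log2 fold change -1.89 ± 0.41, adjusted p = 0.0172). Slit1 was kept by the low-count filter through its WT counts, so these values carry that selection. Its adjusted p was 0.0584, 0.0677 and 0.0625 without WT replicate 1, WT replicate 2 and TCKO replicate 2. Slit3, the most abundant Slit per length, stood at 76.5, 74.4 and 49.5 CPM in WT and at 63.2, 57.8 and 50.8 CPM in TCKO. The genotypes overlapped, and Slit3 did not pass (log2 fold change -0.22 ± 0.17, adjusted p = 0.412). Slit2 made up 19.6 ± 1.26% of the Slit RPKM in WT and 37.4 ± 4.30% in TCKO, and Slit3 76.2 ± 0.224% and 61.6 ± 4.87%. The exon length used is 25433 bp for Slit2 and 6067 bp for Slit3, which lowers the RPKM of Slit2 relative to Slit3 in both genotypes alike.

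The Slit receptors Robo1 and Robo2 were lower in TCKO. Robo1 (chr16:72308306-73046095) was at 55.0, 49.3 and 37.3 CPM in WT and at 28.8, 31.2 and 26.5 CPM in TCKO. No TCKO library reached the lowest WT library, and the decrease was 1.64-fold (log2 fold change -0.71 ± 0.15, adjusted p = 0.0148). Its adjusted p was 0.0565, 0.0653 and 0.0580 without WT replicate 1, WT replicate 2 and TCKO replicate 1. Robo2 (chr16:73891839-74411825) was at 30.9, 28.9 and 20.5 CPM in WT and at 12.2, 14.1 and 19.7 CPM in TCKO. In replicate 3 the genotypes were nearly level, with a difference in log2(CPM + 2) of -0.05 against -1.08 in replicates 1 and 2. Over all libraries Robo2 was 1.74-fold lower (log2 fold change -0.80 ± 0.22, adjusted p = 0.0392), and without WT replicate 1, WT replicate 2, TCKO replicate 1 or TCKO replicate 2 the adjusted p was 0.142, 0.137, 0.127 and 0.128. Robo3, at 11 to 35 counts, did not pass (log2 fold change -0.69 ± 0.40, adjusted p = 0.273). The summed Robo RPKM was 4.11 to 5.69 in WT and 2.67 to 3.26 in TCKO, while that of the Slits was 10.7 to 16.6 and 15 to 16. With replicates 1 and 2 summed, the adjusted p of Robo1, Robo2 and Slit1 was 0.151, 0.312 and 0.122, and with the replicate block added it was 0.0399, 0.236 and 0.0612.

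**Figure D4:**
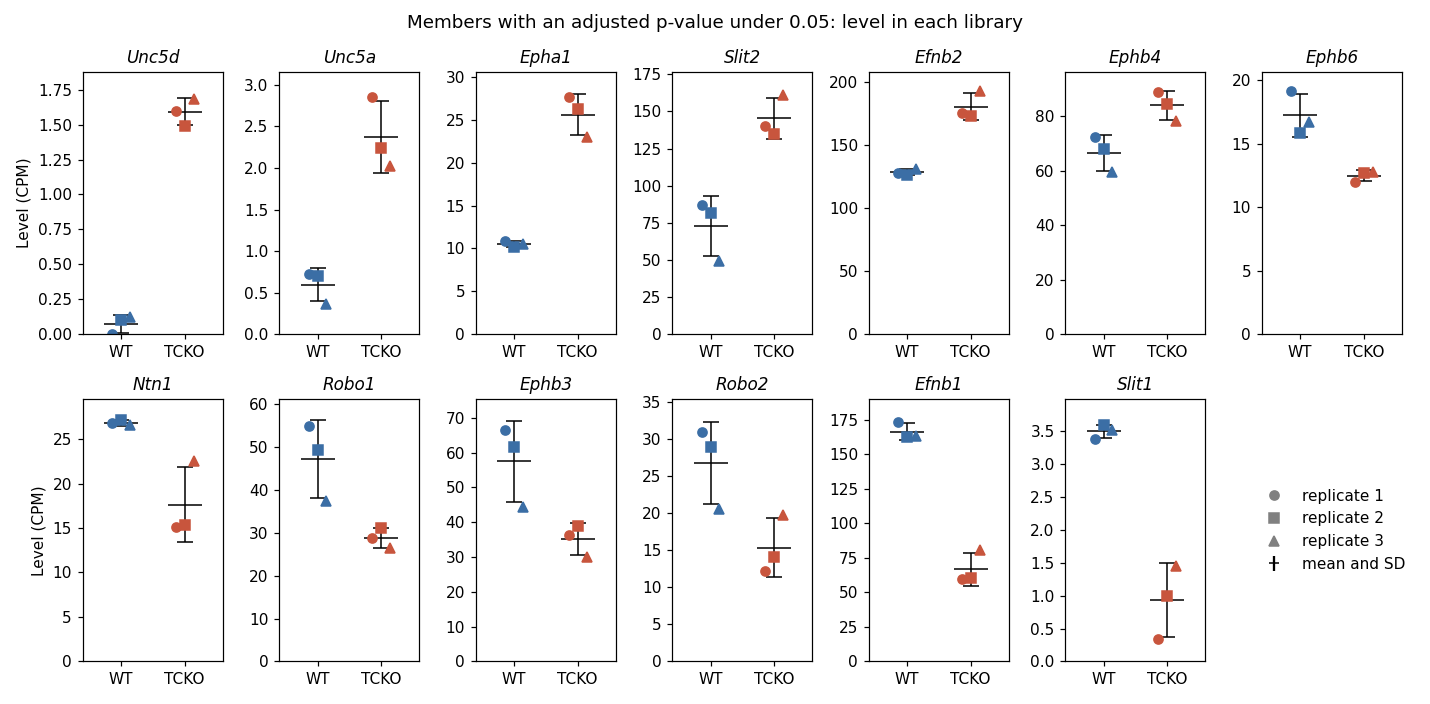
CPM in each library for the 13 members with an adjusted p under 0.05, 1 panel per gene with axes from 0, WT in blue and TCKO in red, marker shape for the replicate, and the mean with its SD in black. In all 13 panels the WT and TCKO points do not overlap, with the narrowest gap relative to the level for Robo2, where WT replicate 3 (20.5 CPM) and TCKO replicate 3 (19.7 CPM) nearly meet.

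Among the netrins, Ntn1 (chr11:68209364-68400823), which encodes the secreted netrin-1, was lower in TCKO, at 26.8, 27.1 and 26.6 CPM in WT and at 15.1, 15.3 and 22.6 CPM in TCKO. The WT libraries were almost level, while TCKO replicate 3 lay nearer to them than the other TCKO libraries did. The decrease was 1.52-fold (log2 fold change -0.60 ± 0.16, adjusted p = 0.0395), and the adjusted p was 0.0585 to 0.133 when any library but TCKO replicate 3 was left out and 0.300 with replicates 1 and 2 summed (0.143 with the block added). Ntn4, a basement membrane netrin, was at 9.57, 13.1 and 10.1 CPM in WT and at 13.1, 17.5 and 18.0 CPM in TCKO. WT replicate 2 nearly met TCKO replicate 1, and Ntn4 did not pass (log2 fold change 0.57 ± 0.18, adjusted p = 0.0694). Ntn4 passed with the replicate block (adjusted p = 0.0267), but not when replicates 1 and 2 were summed under that block (adjusted p = 0.120). Ntn3 (0.36 ± 0.32, adjusted p = 0.488) and Ntng2 (-0.03 ± 0.20, adjusted p = 0.941), a netrin-G held by a lipid anchor, did not pass. Ntn1 made up 45.0 ± 2.86% of the netrin RPKM in WT and 28.9 ± 5.13% in TCKO, and Ntn4 30.6 ± 4.32% and 44.6 ± 4.89%, so the first rank passed from Ntn1 to Ntn4 on average. The summed netrin RPKM overlapped between the genotypes, at 8.75 to 10 in WT and 8.98 to 10.3 in TCKO.

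Of the 4 tested UNC5 netrin receptors, the 2 scarce ones were higher in TCKO. Both were kept by the low-count filter through their TCKO counts, so their fold changes and p-values carry that selection. Unc5a (chr13:54949411-55006018) held 6, 7 and 3 counts in the WT libraries against 25, 18 and 18 in TCKO. Each TCKO library was above each WT library, and the increase was 3.87-fold (log2 fold change 1.95 ± 0.35, adjusted p = 0.00881, or 0.104 with replicates 1 and 2 summed and 0.0505 with the block added). Unc5d (chr8:28646717-29219636) held 0, 1 and 1 counts in the WT libraries against 14, 12 and 15 in TCKO. The WT counts were at or under the floor of 3 counts in every library. The summed ratio of 41 to 2 counts, scaled to library size, was 21.1 with a 95% counting interval of 5.49 to 180, and the adjusted p was 0.00243. At 1.49 to 1.68 CPM in TCKO, Unc5d remained among the least abundant tested members. Its mean was 0.17 RPKM in TCKO and 0.008 RPKM in WT, and it was not tested where the filter was a mean RPKM over 0.24.

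Unc5b, the most abundant netrin receptor and the most abundant member in WT, was at 299, 291 and 465 CPM in WT and at 218, 228 and 561 CPM in TCKO. Replicate 3 was the highest library of each genotype, above the others by more than the genotypes differed, and Unc5b did not pass (log2 fold change -0.07 ± 0.37, adjusted p = 0.923). Within replicates 1 and 2 its difference in log2(CPM + 2) was -0.40 and within replicate 3 it was 0.27. A fit on replicates 1 and 2 alone gave a log2 fold change of -0.40, and the direction depended on the libraries used. Replicates 1 and 2 may be repeat preparations of 1 sample, so a p-value from them alone could measure technical spread only and is not given. Unc5c overlapped between the genotypes (log2 fold change 0.15 ± 0.14, adjusted p = 0.527). Since Unc5b held 88.6 ± 1.99% of the netrin receptor RPKM in WT and 85.1 ± 4.46% in TCKO, the summed level of these receptors followed it, at 53.3 to 81.7 RPKM in WT and 42.9 to 99.6 RPKM in TCKO. Unc50, a Golgi protein matched by symbol only, had a log2 fold change of -0.26 ± 0.09 (adjusted p = 0.0858).

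Because replicate 3 stood apart in both genotypes, the difference was also read within replicates 1 and 2 and within replicate 3. For the 22 members whose genotypes did not overlap, the 13 that passed among them, an equal sign in both follows from that and adds nothing. The sign was opposite for 4 members: Efna2, Efna5, Unc5b and Slit3. Efnb1 differed by -1.46 and -0.999 in log2(CPM + 2), Epha1 by 1.21 and 0.99, and Efnb2 by 0.45 and 0.55. Ntn1 (-0.75 and -0.22) and Robo2 were closer to 0 in replicate 3, and Slit2 and Epha7 (0.28 and 1.64) farther from it. The replicate 3 values rest on 1 library per genotype, which differ in Xist and Ddx3y, and were not tested.

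**Figure D5:**
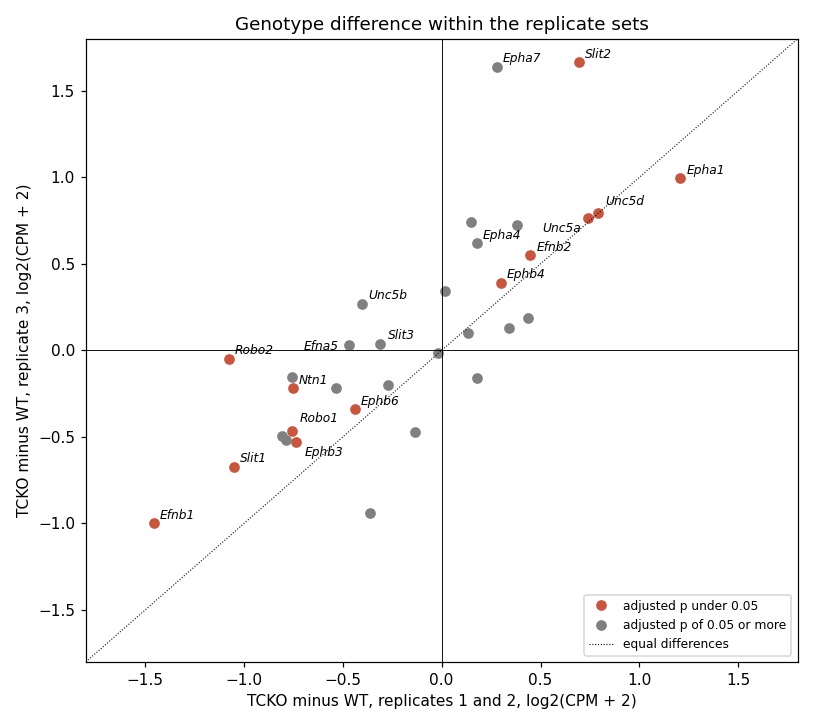
Difference between TCKO and WT in log2(CPM + 2) within replicates 1 and 2 (x axis) against that within replicate 3 (y axis), 1 point per tested member, red where the adjusted p over all libraries was under 0.05, with a dotted line of equal differences. The red points lie in the quadrants of equal sign, as genotypes that do not overlap must, with Efnb1 at -1.46 and -0.999 and Robo2 at -1.08 and -0.05.

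Of 57 other genes of Eph, Slit-Robo and netrin signalling, 56 were found and 52 tested, and 10 were higher (19.2%, against 9.07% of all tested genes) and 5 lower (9.62%, against 8.63%) in TCKO at an adjusted p under 0.05, with a median log2 fold change of 0.04. The higher genes with the largest log2 fold changes were Flrt2 (0.91 ± 0.13, adjusted p = 0.00318), whose membrane protein binds UNC5 receptors, the Rac exchange factor Tiam1 (0.74 ± 0.12, adjusted p = 0.00543), the actin regulators Evl (0.66 ± 0.17, adjusted p = 0.0351) and Enah (0.64 ± 0.12, adjusted p = 0.0110), and the Ras GTPase activator Rasa1 (0.59 ± 0.08, adjusted p = 0.00293). Abl2, Src, Trio, Vasp and Pak2 were the other higher genes, at 0.23 to 0.57. The lower genes were the phosphatase gene Ptpn13 (-1.09 ± 0.21, adjusted p = 0.0108), the exchange factor Kalrn (-0.84 ± 0.09, adjusted p = 0.000869), the glypican Gpc1 (-0.74 ± 0.21, adjusted p = 0.0447), Tiam2 (-0.62 ± 0.08, adjusted p = 0.00194) and Flrt3 (-0.59 ± 0.11, adjusted p = 0.0103). Family partners passed in opposite directions for Flrt2 and Flrt3 and for Tiam1 and Tiam2. Flrt2 rose from 3819, 4855 and 4714 counts in the WT libraries to 7817, 6852 and 9847 in TCKO, and Flrt3 fell from 216, 244 and 190 to 144, 141 and 132. Neo1, the gene of the netrin and repulsive guidance molecule receptor neogenin, did not pass (-0.55 ± 0.18, adjusted p = 0.0733). Neo1 passed with the replicate block (adjusted p = 0.0410), but not when replicates 1 and 2 were summed under that block (adjusted p = 0.245). With that block 16 genes of the list were higher.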

How the data were processed

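RNA-seq counts from 3 WT and 3 TCKO libraries were analysed, grouped by sample title. The authors aligned reads with STAR 2.7.0e to GRCm38 and counted them per gene with featureCounts 2.0.0, and the deposited values are raw counts with summed exon lengths. Strand setting and treatment of shared reads were not given in the sources used here. Symbols were matched by gene identifier for 55144 genes (99.4%). Members and lists were chosen with earlier results of these data known.

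Counts were fitted over all genes with edgeR 4.0.16 (R 4.3.3, filterByExpr, TMM factors, glmQLFit and glmQLFTest, genotype only, 6 libraries), leaving 13826 genes, with two-sided p-values adjusted by Benjamini-Hochberg. A gene was called at an adjusted p under 0.05 and over 2-fold. Standard errors came from the F statistic. CPM and RPKM used TMM-scaled library sizes, and differences within replicates log2(CPM + 2). The counting interval of Unc5d is the exact binomial interval. All members with an adjusted p under 0.05, Ephb4, Efnb2, Slit2, the most abundant member per family, Neo1 and the 5 highest and 5 lowest pathway genes that passed are named.

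Deviations from the genotype means correlated across genes for same-numbered libraries (r = 0.204, 0.214 and 0.347 for replicates 1, 2 and 3). WT replicate 1 with TCKO replicate 2 (0.188) and the reverse (0.225) did likewise, so the correlations do not show how replicates 1 and 2 pair. The main fit therefore used genotype only, and fits with the titles' numbers as a block are given beside it. Replicates 1 and 2 differed by more than counting noise (chi-square per degree of freedom 1.69 in WT and 2.04 in TCKO, against 16.5 to 23.3 for pairs with replicate 3) and were counted separately, as the titles number them. Repeat preparations of 1 sample can also exceed counting noise, so this does not show that they are separate samples, and fits with them summed are given.

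Alternatives were RLE or upper-quartile factors, the low-count filter replaced by 1 count in any library, by 50 counts on average or by a mean RPKM over 0.24, DESeq2 1.42.0 with either filter, a robust fit, a replicate block, replicates 1 and 2 summed with and without the block, replicates 1 and 2 alone, and each library left out. Promoter windows came from RefSeq on GRCm38.p6.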

Additional observations from a re-analysis of the deposited data

How the results depend on the processing

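Among the values of single members under the alternatives, 500 stayed on their side of the adjusted p threshold of 0.05, 35 passed it anew and 48 lost it. No value changed sign where the adjusted p was under 0.05 in either fit. The 500 include values that changed sign without passing in either fit, such as Unc5b (log2 fold change 0.186 without WT replicate 3). Members higher and lower at an adjusted p under 0.05 numbered 6 and 7, and became 2 and 1 with replicates 1 and 2 summed, 4 and 5 with the replicate block added to that fit, and 10 and 15 on replicates 1 and 2 alone. Replicates 1 and 2 may be repeat preparations of 1 sample, so the counts here from them alone may rest on technical spread. With a library left out, the higher members numbered 5 to 6 and the lower ones 1 to 11, the latter 1 without WT replicate 1 or WT replicate 2, 2 without TCKO replicate 1, 3 without TCKO replicate 2 and 11 without TCKO replicate 3. Over 2-fold, the counts of 3 higher and 2 lower members became 1 and 1 among genes averaging 50 counts or more, where Unc5a, Unc5d and Slit1 were no longer tested. The lower count was 1 with replicates 1 and 2 summed, with or without the replicate block, 4 on replicates 1 and 2 alone, and 1 to 5 with a library left out (1 without WT replicate 1, WT replicate 2 or TCKO replicate 2, 5 without TCKO replicate 3). Of the pathway list, 10 were higher and 5 lower. These became 16 higher with the replicate block, 0 and 1 with replicates 1 and 2 summed (edgeR, with 11 and 5 at an unadjusted p under 0.05, and DESeq2 on the 6 libraries gave 10 and 6), 6 and 3 with that block added, 21 and 13 on replicates 1 and 2 alone, and 6 to 12 higher and 2 to 6 lower with a library left out, the fewest without WT replicate 2 and WT replicate 1. Over all genes, 437 were called higher and 441 lower, against 255 and 288 among genes averaging 50 counts or more, 178 and 146 after summing replicates 1 and 2, and 663 higher on replicates 1 and 2 alone. The replicate block kept an adjusted p under 0.05 for all 13 members that passed and added Epha2, Epha3 and Ntn4 (7 higher and 9 lower). It took Slit2 over 2-fold (log2 fold change 1.03, 4 higher members over 2-fold) and changed no other member's call at over 2-fold. Slit2 was also over 2-fold with RLE factors, upper-quartile factors and DESeq2, with 4 higher members over 2-fold in each. The same held without WT replicate 1, WT replicate 2, TCKO replicate 1 or TCKO replicate 2. Over all genes the replicate block gave 487 called higher and 524 lower. Except where fewer genes were tested or fewer samples entered, the cause of these changes was not tested. At this depth, members under 3 counts per library could not be compared, and these limits cover counting error only.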
